A study of Mus musculus with 13 samples.

Results

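The transcripts followed here are 33 genes of the cells that wrap brain vessels, of the 47643 genes in the count table. They were taken by symbol through their Ensembl identifiers, 17 as pericyte genes and 16 as genes of the smooth muscle contractile apparatus, and all 33 were found. Of these, 32 passed the filter on low counts and were tested in a fit of 17285 genes, and the exception was *Actg2*, the enteric smooth muscle actin, with 25 reads over all mice. RNA-seq was made from the isolated neurovasculature of 13 male mice of the outbred CD1 strain, 8 to 10 weeks old, with no genetic modification stated and 1 library per mouse. The sham-vehicle group held 4 mice given PBS in place of LPS. The LPS-vehicle group held 5 mice injected intraperitoneally with 3 mg/kg of *Salmonella* lipopolysaccharide (LPS, a bacterial cell wall component that sets off systemic inflammation) at 0, 6 and 24 h. The LPS-CPD-4645 group held 4 mice that received the same LPS and, 30 min after each injection by the labels (the study's text also gives a longer delay), 10 mg/kg of CPD-4645 under the skin, an inhibitor of monoacylglycerol lipase (MAGL), the enzyme that breaks down the endocannabinoid 2-AG. Brains were taken 28 h after the first LPS injection and were not perfused, so blood is part of the material. CPD-4645 was not given without LPS in these libraries, so its effect is measured only on top of LPS.

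Pericytes and vascular smooth muscle cells are together called mural cells. Pericytes lie along capillaries inside the basement membrane, are recruited and kept there by endothelial PDGF-B acting on the receptor PDGFRβ, and help to maintain the blood-brain barrier. Smooth muscle cells ring arteries and arterioles and set their diameter: calcium activates myosin light chain kinase, which phosphorylates the regulatory light chain so that smooth muscle myosin pulls on alpha-actin filaments. Many of the contractile genes are switched on together by serum response factor (SRF) with myocardin, bound to a short promoter element called the CArG box, while Notch signalling from endothelium acts on mural cells through the receptor Notch3 and the transcription factor RBPJ.

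Libraries held from 7813559 counts (LPS-vehicle mouse 3) to 55133373, and the next shallowest was LPS-CPD-4645 mouse 1 with 12548404. Expression is given below as CPM, counts scaled to a common library total after TMM normalization, with the SD over mice. Fold changes are log2 values from edgeR's quasi-likelihood fit over all 13 mice, and a gene was called changed where p, adjusted by Benjamini and Hochberg's method, did not exceed 0.05. The label of the tissue was checked against marker genes. Mural markers were present in every library, but so were those of other brain cells. In sham-vehicle mice the synaptic vesicle gene *Syp* stood at 921 CPM per kilobase of exon, against 75.9 for the endothelial tight junction gene *Cldn5*, 7.10 for endothelial *Pecam1* and 6.39 for *Pdgfrb*. The summed level of 8 neuronal markers ran from 9458 to 10850 CPM in sham-vehicle, 7977 to 8758 in LPS-vehicle and 8610 to 10987 in LPS-CPD-4645 mice, beside 730.1 to 914 CPM, 603 to 790.3 CPM and 647 to 755 CPM for all 33 mural genes. Of that mural sum, 207 to 221 CPM in sham-vehicle mice came from *Tpm1*, a tropomyosin gene of many cell types. In such a mixture fewer cells of a type and less RNA per cell cannot be told apart.

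Per kilobase of exon, the highest level among the 33 genes in sham-vehicle mice was that of *Vtn*, at 60.02 CPM per kilobase. *Vtn* encodes vitronectin, an adhesive plasma and matrix protein that brain pericytes transcribe. It was followed by *Tpm1* (tropomyosin 1, which lines actin filaments in many cell types) at 44.8, *Rgs5* (a regulator of G protein signalling and a classical pericyte marker) at 28.6, *Myl9* (the regulatory light chain of smooth muscle myosin) at 24.7 and *Mcam* (the adhesion molecule CD146) at 16.02. Smooth muscle alpha-actin, *Acta2*, stood at 10.1 and the actin-binding transgelin gene, *Tagln*, at 8.19. At the low end were *Cnn1* at 0.160, *Flnc* at 0.124 and *Actg2* at 0.0497 CPM per kilobase. Of the 32 pairs of neighbours in this order, 26 overlapped between sham-vehicle mice, *Vtn* with *Tpm1* and *Rgs5* with *Myl9* among them, and 6 did not, such as *Tpm1* with *Rgs5*, *Myl9* with *Mcam* and *Mcam* with *Acta2*. These lengths are from the GENCODE M21 annotation, a later release than the one used for counting.

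**Figure D1:**
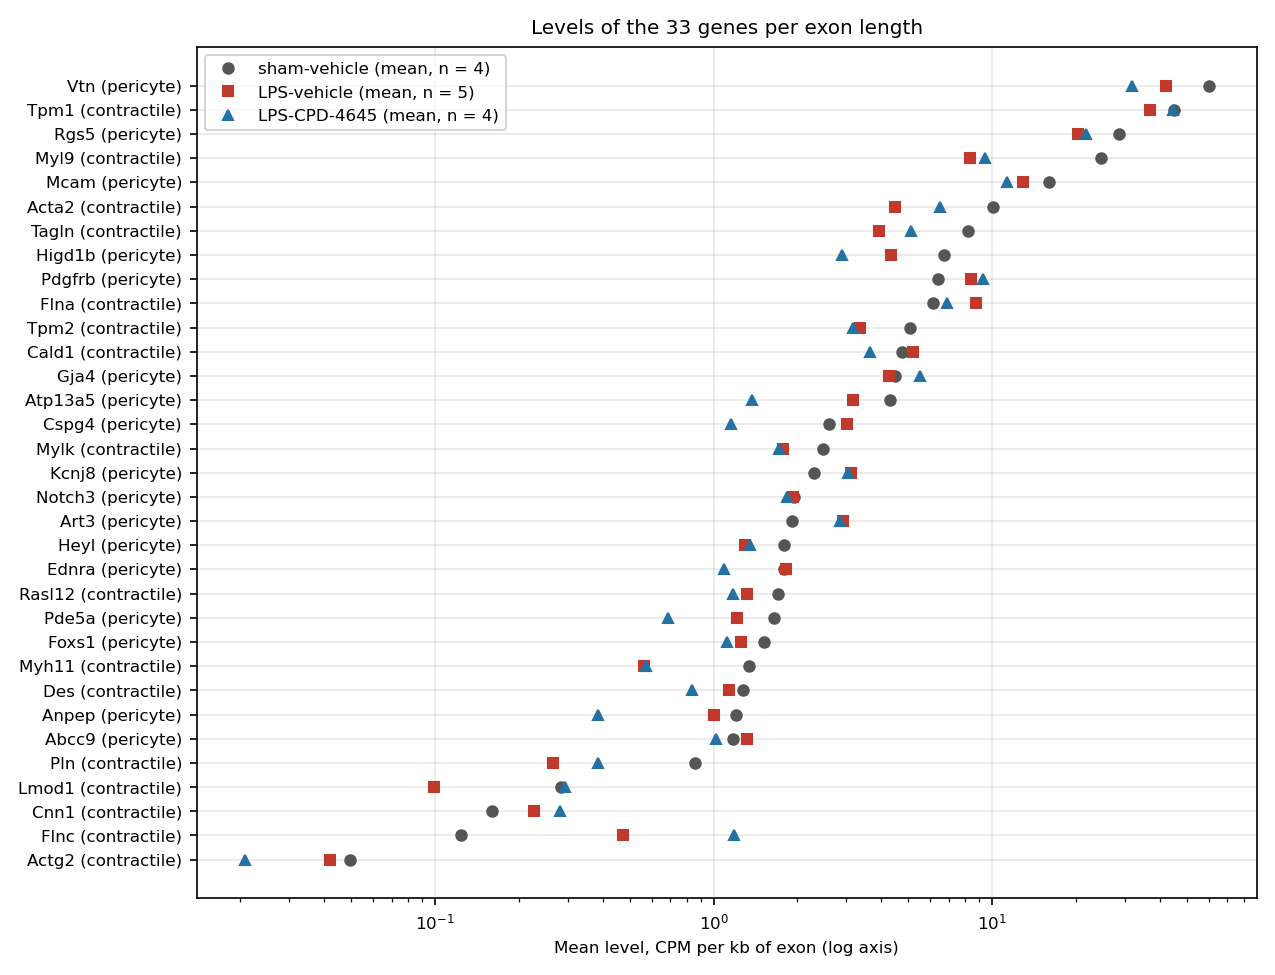
Mean level of each of the 33 genes in CPM per kilobase of exon (horizontal log axis) in sham-vehicle (circles, n = 4), LPS-vehicle (squares, n = 5) and LPS-CPD-4645 mice (triangles, n = 4), ordered by the sham-vehicle mean. *Vtn*, *Tpm1* and *Rgs5* stand highest and *Actg2* lowest, and the sham-vehicle means of *Myl9*, *Acta2*, *Tagln* and *Myh11* lie to the right of both LPS groups.

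Because SRF acts through the CArG box, promoters were searched for it, and the 3 members whose 250 bases upstream of a RefSeq transcription start held a CArG-type match are shown in full. The exact CArG box is CC, then 6 bases that are each A or T, then GG, and it reads alike on both strands. A relaxed form allowed 1 of the 6 central bases to be another letter. Sequences are RefSeq's on GRCm38.p6, printed 5′ to 3′ on the strand of the gene, with matches to the relaxed form in capitals.

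Myl9: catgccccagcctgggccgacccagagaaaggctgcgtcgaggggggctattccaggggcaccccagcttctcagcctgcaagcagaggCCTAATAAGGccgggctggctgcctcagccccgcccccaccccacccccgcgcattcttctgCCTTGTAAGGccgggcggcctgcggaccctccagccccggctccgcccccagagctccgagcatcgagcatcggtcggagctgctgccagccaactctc
Acta2: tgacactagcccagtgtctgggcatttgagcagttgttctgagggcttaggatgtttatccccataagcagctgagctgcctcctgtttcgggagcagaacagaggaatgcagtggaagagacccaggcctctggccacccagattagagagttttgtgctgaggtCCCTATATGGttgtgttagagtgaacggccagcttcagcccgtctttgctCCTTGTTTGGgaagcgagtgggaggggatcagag
Flnc: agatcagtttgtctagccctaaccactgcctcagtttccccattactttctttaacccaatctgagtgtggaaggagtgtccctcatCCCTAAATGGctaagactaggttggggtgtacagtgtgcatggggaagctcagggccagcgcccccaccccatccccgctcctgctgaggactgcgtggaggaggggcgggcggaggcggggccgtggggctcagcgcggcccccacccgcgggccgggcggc

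The *Myl9* window is chr2:156775214-156775463 on the plus strand, with matches starting 161 and 99 bases before the start site, the first of them exact. The *Acta2* window is chr19:34255374-34255623 on the minus strand, with relaxed matches starting 84 and 34 bases before the start site. The *Flnc* window is chr6:29432903-29433152 on the plus strand, with 1 relaxed match starting 163 bases before it. RefSeq's start sites differ from the gene starts of the annotation used for the positions below. On *Acta2* RefSeq's start lies 217 bases inside the annotated gene, so both matches fall within the gene span, and on *Myl9* it lies 44 bases inside, with both matches upstream of the gene. *Flnc* has a pair of RefSeq starts, and the match belongs to the one 103 bases upstream of the annotated gene start, while the window of the other, which is that gene start, held no match. A gene with several starts was counted where any of its windows held a match. A promoter was given for 26 of the 33 genes, 13 in each list. None was given for *Pdgfrb*, *Higd1b*, *Heyl*, *Foxs1*, *Tagln*, *Myh11* and *Actg2*, so these were not searched. The relaxed form was found in 3 of 13 contractile (23.1%) and 0 of 13 pericyte promoters, and in 2643 of 27025 promoters of all genes (9.78%). The exact box was found in 1 of 13 contractile promoters, in 0 of 13 pericyte promoters and in 439 promoters of all genes (1.62%). The core of the RBPJ motif, TGGGAA on either strand, was in 4 of 13 pericyte promoters (*Abcc9*, *Vtn*, *Art3* and *Pde5a*) and 2 of 13 contractile promoters (*Acta2* and *Tpm1*), beside 24.1% of all. A match of letters says nothing about binding.

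After LPS alone, the members with the largest falls were contractile genes. Of 15 tested, 8 fell and 2 rose against sham-vehicle, while of the 17 pericyte genes 2 fell and 1 rose (edgeR). Over all 17285 genes tested, 8.86% were called lower and 11.1% higher in this comparison. The median log2 fold change was -0.47 over the contractile genes, -0.26 over the pericyte genes and -0.00065 over all genes. Without sham-vehicle mouse 3 or LPS-vehicle mouse 1 the pericyte median was -0.11 and -0.13. For 8 contractile genes and 1 pericyte gene every LPS-vehicle mouse lay below every sham-vehicle mouse, and 8.44% of all genes were separated downward in this way. The 5 contractile genes that fell by more than 2-fold were *Pln*, *Myl9*, *Myh11*, *Acta2* and *Tagln*, and no pericyte gene did, beside 0.995% of all genes. *Flnc* was the member that rose by more than 2-fold, beside 4.68% of all genes. Without sham-vehicle mouse 1 or mouse 3, or without LPS-vehicle mouse 1, the contractile genes called lower were 6. LPS-vehicle mouse 3, the shallowest library, had the lowest contractile values of its group (a summed level of 321 CPM, against 332 to 362 in the others), and without it 7 contractile genes were called lower, at a median of -0.40. The broadly expressed *Tpm1* and *Flna*, at 172 and 69.7 CPM in that mouse, made up most of its 321 CPM. The share of counts from mitochondrial genes was 6.47 to 12.7% in sham-vehicle, 4.84 to 7.05% in LPS-vehicle and 3.97 to 8.17% in LPS-CPD-4645 mice, and its part in these results and those with CPD-4645 was not tested.

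**Figure D2:**
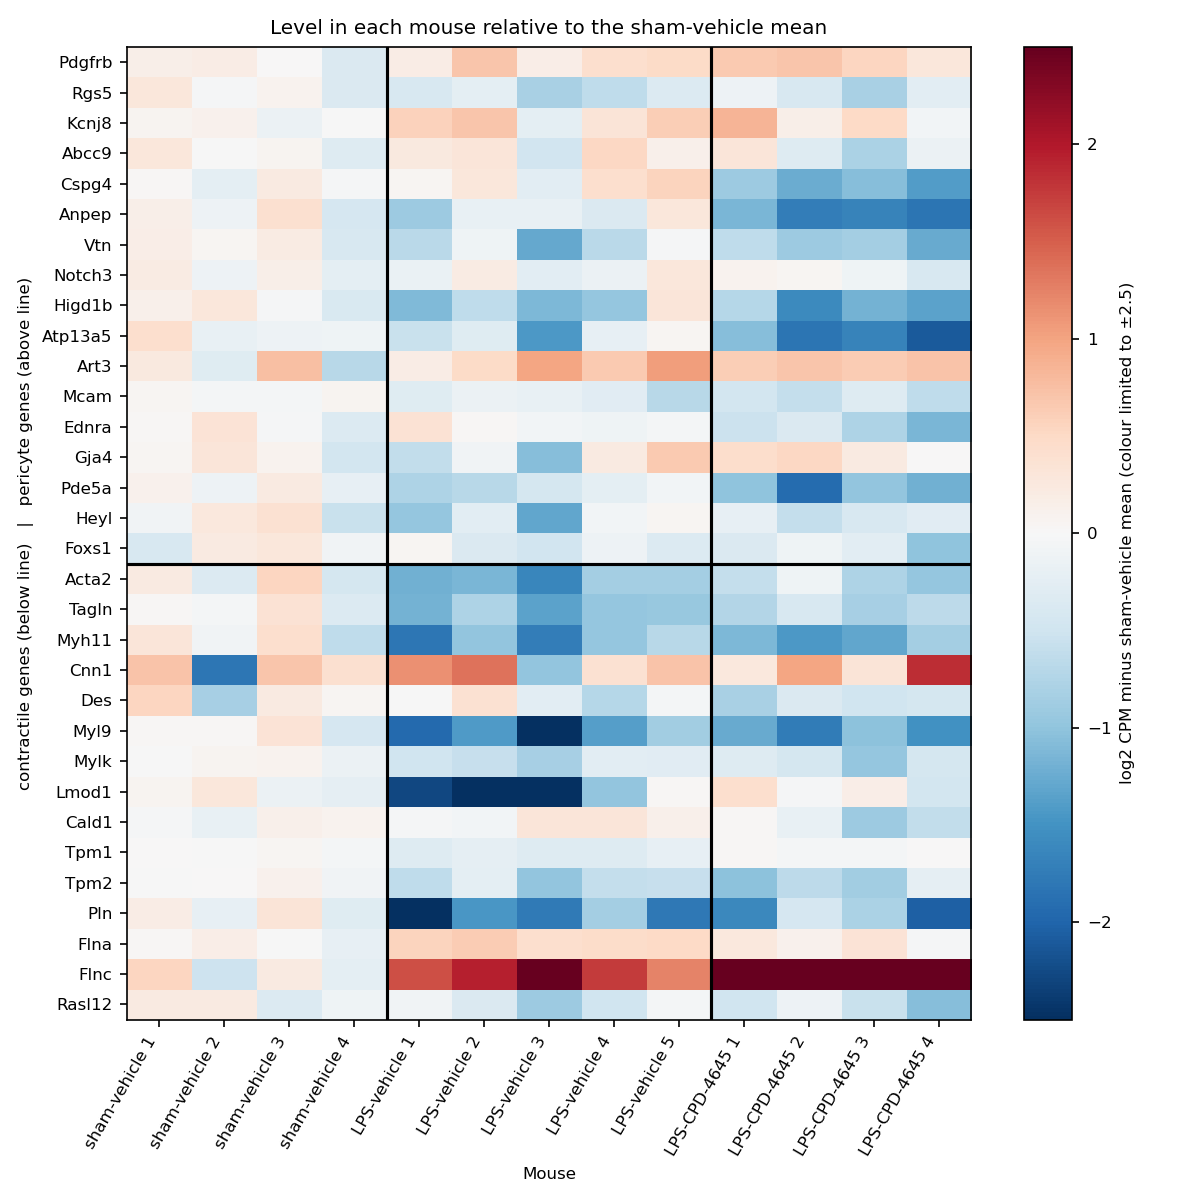
Log2 CPM of each tested member in each mouse minus its sham-vehicle mean (colour, blue lower and red higher, limited to 2.5 either way), with pericyte genes above and contractile genes below the line and the 13 mice in columns by group. The contractile rows *Myl9*, *Myh11*, *Acta2*, *Tagln* and *Pln* are low in all 5 LPS-vehicle mice, and the pericyte rows *Cspg4*, *Anpep*, *Atp13a5* and *Pde5a* are low in all 4 LPS-CPD-4645 mice.

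*Myl9* (chromosome 2, 156775420 to 156781658 of GRCm38, build used for all positions) was measured at 28.1, 28.1, 34.8 and 20.4 CPM in the sham-vehicle mice, 7.04, 10.2, 4.16, 10.5 and 14.9 in the LPS-vehicle mice and 11.5, 8.15, 13.4 and 9.54 in the LPS-CPD-4645 mice. The LPS-vehicle mice all lay below the sham-vehicle mice, and the LPS-CPD-4645 mice lay among the LPS-vehicle mice. Its mean fell from 27.9 ± 5.86 (SD, n = 4) to 9.36 ± 4.05 CPM (n = 5) after LPS (log2 fold change -1.53, SE 0.24, adjusted p = 0.00018). *Myh11* (chromosome 16, 14194535 to 14291372), the smooth muscle myosin heavy chain and the most specific of these genes for smooth muscle, was measured at 10.6, 8.00, 11.4 and 5.48 CPM in the sham-vehicle mice, 2.37, 4.27, 2.52, 4.30 and 5.22 in the LPS-vehicle mice and 3.87, 3.11, 3.43 and 4.67 in the LPS-CPD-4645 mice. Here too no LPS-vehicle mouse reached the lowest sham-vehicle mouse (log2 fold change -1.22, SE 0.25, adjusted p = 0.0021).

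*Acta2* (chromosome 19, 34241090 to 34255590) was measured at 23.2, 15.6, 28.8 and 14.6 CPM in the sham-vehicle mice, 8.52, 8.88, 6.30, 11.0 and 11.0 in the LPS-vehicle mice and 12.97, 18.4, 11.5 and 10.0 in the LPS-CPD-4645 mice. Sham-vehicle and LPS-vehicle mice did not overlap (log2 fold change -1.15, SE 0.22, adjusted p = 0.00088), and the LPS-CPD-4645 mice reached from inside the LPS-vehicle range into the sham-vehicle range. *Tagln* (chromosome 9, 45929619 to 45936058), whose exons share 94 bases with *Pcsk7* on the other strand, was measured at 13.2, 12.4, 16.5 and 10.1 CPM in the sham-vehicle mice, 5.63, 7.497, 5.04, 6.52 and 6.65 in the LPS-vehicle mice and 7.75, 9.72, 7.19 and 8.12 in the LPS-CPD-4645 mice. Its LPS-vehicle mice lay below all sham-vehicle mice (log2 fold change -1.04, SE 0.17, adjusted p = 0.00018). *Pln* (chromosome 10, 53337667 to 53345987) encodes phospholamban, which restrains the calcium pump of the sarcoplasmic reticulum, and it overlaps the span of *Cep85l* on the other strand without shared exon bases. It was measured at 2.65, 2.01, 2.91 and 1.88 CPM in the sham-vehicle mice, 0.343, 0.807, 0.630, 1.26 and 0.626 in the LPS-vehicle mice and 0.712, 1.71, 1.32 and 0.510 in the LPS-CPD-4645 mice, again without overlap between sham-vehicle and LPS-vehicle mice (log2 fold change -1.66, SE 0.41, adjusted p = 0.0070). At these levels *Pln* rested on 5 to 93 reads per library.

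The regulators and filament genes that fell did so by less. *Mylk*, the kinase that phosphorylates the light chain, was measured at 19.9, 21.0, 21.2 and 18.2 CPM in the sham-vehicle mice, 14.1, 13.4, 11.2, 16.6 and 16.5 in the LPS-vehicle mice and 16.1, 14.7, 10.2 and 14.7 in the LPS-CPD-4645 mice. Sham-vehicle and LPS-vehicle mice did not overlap (log2 fold change -0.47, SE 0.14, adjusted p = 0.027). *Tpm2*, the tropomyosin of smooth and slow skeletal muscle, was measured at 11.98, 12.1, 12.9 and 11.3 CPM in the sham-vehicle mice, 7.73, 10.2, 6.05, 8.00 and 8.08 in the LPS-vehicle mice and 5.85, 7.59, 6.55 and 10.3 in the LPS-CPD-4645 mice. It too was lower in every LPS-vehicle than in any sham-vehicle mouse (log2 fold change -0.57, SE 0.17, adjusted p = 0.025). *Tpm1* was measured at 217, 213, 221 and 207 CPM in the sham-vehicle mice, 172, 184, 172, 172 and 186 in the LPS-vehicle mice and 219.8, 209, 208 and 215 in the LPS-CPD-4645 mice. It fell by a small amount with little spread (log2 fold change -0.27, SE 0.063, adjusted p = 0.0047), and the LPS-vehicle mice alone were low. The call for *Mylk* was lost without sham-vehicle mouse 1, 2 or 3 or LPS-vehicle mouse 1, 2 or 3 (adjusted p = 0.053 to 0.079, edgeR) or the 2 shallowest libraries (adjusted p = 0.054), and that for *Tpm2* without sham-vehicle mouse 1 or 3 or LPS-vehicle mouse 1 (adjusted p = 0.054 to 0.073).

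The filamins went the other way. *Flna*, a broadly expressed actin crosslinker that endothelial and blood cells also make, was measured at 52.8, 58.3, 51.7 and 45.0 CPM in the sham-vehicle mice, 76.5, 80.9, 69.7, 70.7 and 72.7 in the LPS-vehicle mice and 62.0, 55.9, 65.6 and 51.0 in the LPS-CPD-4645 mice. All LPS-vehicle mice lay above all sham-vehicle mice (log2 fold change 0.51, SE 0.092, adjusted p = 0.00058). *Flnc* (chromosome 6, 29433256 to 29461883), the filamin of striated and smooth muscle, was measured at 1.60, 0.724, 1.27 and 0.889 CPM in the sham-vehicle mice, 3.43, 4.36, 7.18, 3.78 and 2.62 in the LPS-vehicle mice and 9.65, 15.8, 10.3 and 6.95 in the LPS-CPD-4645 mice. It rose after LPS (log2 fold change 1.85, SE 0.32, adjusted p = 0.00044) without overlap between the groups. Of all genes, 9.68% were separated upward.

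The remaining contractile genes were not called after LPS by edgeR. *Lmod1*, leiomodin, which nucleates actin filaments in smooth muscle, was measured at 1.17, 1.37, 0.996 and 0.938 CPM in the sham-vehicle mice, 0.172, 0.126, 0, 0.520 and 1.13 in the LPS-vehicle mice and 1.502, 1.08, 1.24 and 0.785 in the LPS-CPD-4645 mice. LPS-vehicle mice 1, 2, 3 and 4 were low and mouse 5 was at the sham-vehicle level (log2 fold change -1.39, SE 0.60, adjusted p = 0.11). Without that mouse the log2 fold change was -2.23 (adjusted p = 0.010, edgeR). The gene rested on 0 to 41 reads per library. *Lmod1* was also called by limma-voom, the study's own test (log2 fold change -1.996, adjusted p = 0.018), and with the replicate number as a block (log2 fold change -2.36, adjusted p = 0.019), which each made 9 contractile genes lower after LPS. *Cald1* (caldesmon, an actin-binding inhibitor of myosin), *Des* (desmin, the muscle intermediate filament), *Cnn1* (calponin) and *Rasl12* had log2 fold changes of 0.13, -0.17, 0.58 and -0.36, with adjusted p from 0.28 to 0.73.

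Among the pericyte genes, the receptor gene *Pdgfrb* was measured at 38.5, 39.4, 35.1 and 27.1 CPM in the sham-vehicle mice, 39.5, 56.4, 38.8, 46.4 and 48.3 in the LPS-vehicle mice and 54.8, 56.4, 50.2 and 42.2 in the LPS-CPD-4645 mice. It was higher after LPS (log2 fold change 0.39, SE 0.13, adjusted p = 0.037), although the groups overlapped. *Rgs5* (chromosome 1, 169655501 to 169695813) was measured at 156, 126, 137 and 100.4 CPM in the sham-vehicle mice, 97.6, 108, 72.7, 82.4 and 101 in the LPS-vehicle mice and 117, 97.2, 73.6 and 106 in the LPS-CPD-4645 mice. It was lower after LPS (log2 fold change -0.49, SE 0.14, adjusted p = 0.019), also with overlap. *Mcam* was measured at 49.3, 46.0, 46.4 and 49.9 CPM in the sham-vehicle mice, 38.7, 42.9, 42.1, 39.6 and 29.4 in the LPS-vehicle mice and 34.6, 31.7, 38.2 and 30.6 in the LPS-CPD-4645 mice. It was the pericyte gene whose LPS-vehicle mice all lay below the sham-vehicle mice (log2 fold change -0.32, SE 0.10, adjusted p = 0.040), and *Mcam* is made by endothelial cells as well.

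All 3 of these pericyte calls were lost when certain single mice were left out. That of *Mcam* was lost without any 1 of 8 mice (sham-vehicle 1 to 4, LPS-vehicle 1, 4 and 5, LPS-CPD-4645 1), with adjusted p = 0.051 to 0.10 (edgeR), and with the replicate number as a block (log2 fold change -0.23, adjusted p = 0.091). That of *Pdgfrb* was lost without sham-vehicle mouse 3 or 4 or LPS-vehicle mouse 2, 4 or 5 (adjusted p = 0.058 to 0.14). That of *Rgs5* was lost without sham-vehicle mouse 1 or 3 (adjusted p = 0.054 and 0.084). With 1 mouse left out, 0 to 3 pericyte genes were called lower and 0 to 2 higher.

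With CPD-4645 on top of LPS, the members with the largest falls were pericyte genes. Against LPS-vehicle mice, 5 of 17 pericyte genes fell and 0 rose (edgeR, with 0 also at an unadjusted p under 0.05, by limma-voom and by DESeq2), while of 15 contractile genes 2 fell and 2 rose. Over all genes tested, 16.4% were called lower and 14.1% higher, so the contractile share of 13.3% in each direction lay near that of all genes. The median log2 fold change was -0.19 over the pericyte genes and 0.14 over the contractile genes, and -0.023 over all genes. Single mice moved both medians. The contractile one was -0.010 without LPS-vehicle mouse 3, -0.030 without LPS-CPD-4645 mouse 4, 0.044 without LPS-vehicle mouse 1, 0.071 without LPS-CPD-4645 mouse 3 and 0.22 without LPS-vehicle mouse 5, and the pericyte one -0.30 without LPS-CPD-4645 mouse 2. The 3 pericyte genes that fell by more than 2-fold were *Cspg4*, *Anpep* and *Atp13a5*, beside 4.19% of all genes, and *Flnc* was the member that rose by as much, beside 1.70%. For 4 pericyte genes (*Cspg4*, *Anpep*, *Ednra* and *Pde5a*) every LPS-CPD-4645 mouse lay below every LPS-vehicle mouse, and 12.0% of all genes were separated downward. With the 2 shallowest libraries left out, those of LPS-vehicle mouse 3 and mouse 1 of the CPD-4645 group, 8 of the 17 pericyte genes were called lower. The pericyte median then stood at -0.36 and the contractile median at -0.045.

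*Cspg4* (chromosome 9, 56865033 to 56899870) encodes the proteoglycan NG2 of pericytes and of oligodendrocyte precursors. It was measured at 21.2, 17.7, 24.6 and 20.6 CPM in the sham-vehicle mice, 21.5, 25.3, 17.4, 27.9 and 30.6 in the LPS-vehicle mice and 11.1, 8.74, 9.90 and 7.85 in the LPS-CPD-4645 mice. All 4 LPS-CPD-4645 mice lay below all other mice, and the sham-vehicle and LPS-vehicle mice overlapped. Its mean was 24.6 ± 5.23 CPM after LPS and 9.41 ± 1.43 with CPD-4645 (log2 fold change -1.40, SE 0.16, adjusted p = 1.3e-05). Markers of oligodendrocyte precursors moved in the same direction. Of 8 listed, 4 fell in this comparison, and their summed level was 438 to 467 CPM in sham-vehicle, 312 to 436 in LPS-vehicle and 268 to 286 in LPS-CPD-4645 mice. After LPS alone 4 of the 8 were also lower than in sham-vehicle mice, beside 8.86% of all genes. *Cspg4* was not called there (log2 fold change 0.23, SE 0.15, adjusted p = 0.32, edgeR). *Pdgfra*, a defining marker of that cell, had means of 50.7 and 42.9 CPM (log2 fold change -0.25, SE 0.13, adjusted p = 0.16). The part of these cells in the *Cspg4* result was not tested.

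*Anpep* (chromosome 7, 79821803 to 79861059), aminopeptidase N or CD13, a surface enzyme of brain pericytes and of myeloid cells, was measured at 4.93, 4.10, 5.94 and 3.31 CPM in the sham-vehicle mice, 2.34, 3.89, 3.91, 3.48 and 5.45 in the LPS-vehicle mice and 1.98, 1.29, 1.35 and 1.22 in the LPS-CPD-4645 mice. The LPS-CPD-4645 mice lay below all others (log2 fold change -1.41, SE 0.28, adjusted p = 0.0011). *Atp13a5* (chromosome 16, 29231851 to 29378732), a P-type ATPase gene used as a marker of brain pericytes, was measured at 26.1, 17.01, 17.9 and 18.0 CPM in the sham-vehicle mice, 13.2, 15.7, 7.18, 16.9 and 20.001 in the LPS-vehicle mice and 9.25, 5.46, 6.10 and 4.51 in the LPS-CPD-4645 mice. Its LPS-CPD-4645 mice were lowest except that LPS-vehicle mouse 3 lay among them (log2 fold change -1.26, SE 0.25, adjusted p = 0.0011). Neutrophil markers also fell with CPD-4645, 5 of 5 tested, with a summed level of 0.84 to 4.22 CPM in sham-vehicle, 47.2 to 191 in LPS-vehicle and 3.24 to 17.4 in LPS-CPD-4645 mice. Between LPS-vehicle and sham-vehicle mice, where the neutrophil markers rose, *Anpep* was not called (log2 fold change -0.26, SE 0.25, adjusted p = 0.52). The part of blood cells in the *Anpep* result was not tested.

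The other pericyte genes that fell act on vessel tone. *Pde5a*, the phosphodiesterase that breaks down cyclic GMP, was measured at 14.1, 11.99, 15.4 and 11.3 CPM in the sham-vehicle mice, 7.66, 8.04, 9.70, 11.0 and 12.4 in the LPS-vehicle mice and 6.48, 3.39, 6.59 and 5.65 in the LPS-CPD-4645 mice. All LPS-CPD-4645 mice lay below the LPS-vehicle mice (log2 fold change -0.83, SE 0.20, adjusted p = 0.0053). *Ednra*, the endothelin receptor that drives constriction, was measured at 6.503, 8.12, 6.21 and 5.04 CPM in the sham-vehicle mice, 8.24, 6.49, 6.05, 5.94 and 6.20 in the LPS-vehicle mice and 4.35, 4.93, 3.73 and 2.86 in the LPS-CPD-4645 mice. It too was lower in every LPS-CPD-4645 mouse than in any other mouse (log2 fold change -0.74, SE 0.20, adjusted p = 0.0098).

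The other 12 pericyte genes did not pass edgeR's test over all mice in this comparison. *Higd1b* had a log2 fold change of -0.63 (adjusted p = 0.12) and was called without the 2 shallowest libraries (log2 fold change -0.90, adjusted p = 0.048). *Mcam* had -0.19 (adjusted p = 0.19) and was called with the replicate number as a block (adjusted p = 0.036) and without LPS-vehicle mouse 5 (adjusted p = 0.032). *Pdgfrb* had a log2 fold change of 0.14 (adjusted p = 0.42, edgeR), *Rgs5* of 0.087 (adjusted p = 0.68) and *Notch3* of -0.087 (adjusted p = 0.70). The subunits of the pericyte potassium channel that opens when ATP runs low, *Kcnj8* and *Abcc9*, had log2 fold changes of -0.070 and -0.40 (edgeR).

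Among the contractile genes, *Cald1* and *Flna* fell with CPD-4645. *Cald1* was measured at 23.7, 21.2, 26.2 and 25.7 CPM in the sham-vehicle mice, 23.7, 23.1, 29.9, 29.9 and 26.4 in the LPS-vehicle mice and 24.7, 21.3, 12.8 and 15.8 in the LPS-CPD-4645 mice, with LPS-CPD-4645 mice 3 and 4 low and mice 1 and 2 at the level of the others (log2 fold change -0.52, SE 0.16, adjusted p = 0.019). Without LPS-CPD-4645 mouse 3 or mouse 4 the call for *Cald1* was lost (log2 fold change -0.43 to -0.37, adjusted p = 0.074 to 0.076, edgeR). *Flna* was lower in every LPS-CPD-4645 mouse than in any LPS-vehicle mouse (log2 fold change -0.34, SE 0.092, adjusted p = 0.0095), and the call was lost without LPS-CPD-4645 mouse 4 (adjusted p = 0.053).

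*Tpm1* and *Flnc* rose with CPD-4645. *Tpm1* was higher in all 4 LPS-CPD-4645 mice than in all 5 LPS-vehicle mice (log2 fold change 0.26, SE 0.063, adjusted p = 0.0046). *Flnc* rose further (log2 fold change 1.37, SE 0.29, adjusted p = 0.0017), with means of 1.12 ± 0.392, 4.28 ± 1.74 and 10.7 ± 3.73 CPM in sham-vehicle, LPS-vehicle and LPS-CPD-4645 mice, although LPS-vehicle mouse 3 overlapped the LPS-CPD-4645 mice. *Myl9*, *Myh11*, *Tpm2* and *Mylk* had log2 fold changes from -0.090 to 0.14 against LPS-vehicle. *Acta2* (log2 fold change 0.51, SE 0.22, adjusted p = 0.084), *Tagln* (log2 fold change 0.37, SE 0.17, adjusted p = 0.10) and *Lmod1* (log2 fold change 1.42, SE 0.61, adjusted p = 0.082) had positive values that did not pass the test. DESeq2 called *Acta2* (adjusted p = 0.048) and *Lmod1* (adjusted p = 0.044), and limma-voom (adjusted p = 0.015) and the fit with the replicate number as a block (log2 fold change 2.40, adjusted p = 0.014) called *Lmod1*. Without LPS-vehicle mouse 5 the log2 fold change of *Lmod1* was 2.26 (adjusted p = 0.0075, edgeR). The LPS-vehicle mice held 0 to 38 reads of *Lmod1* and the LPS-CPD-4645 mice 19 to 33.

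**Figure D3:**
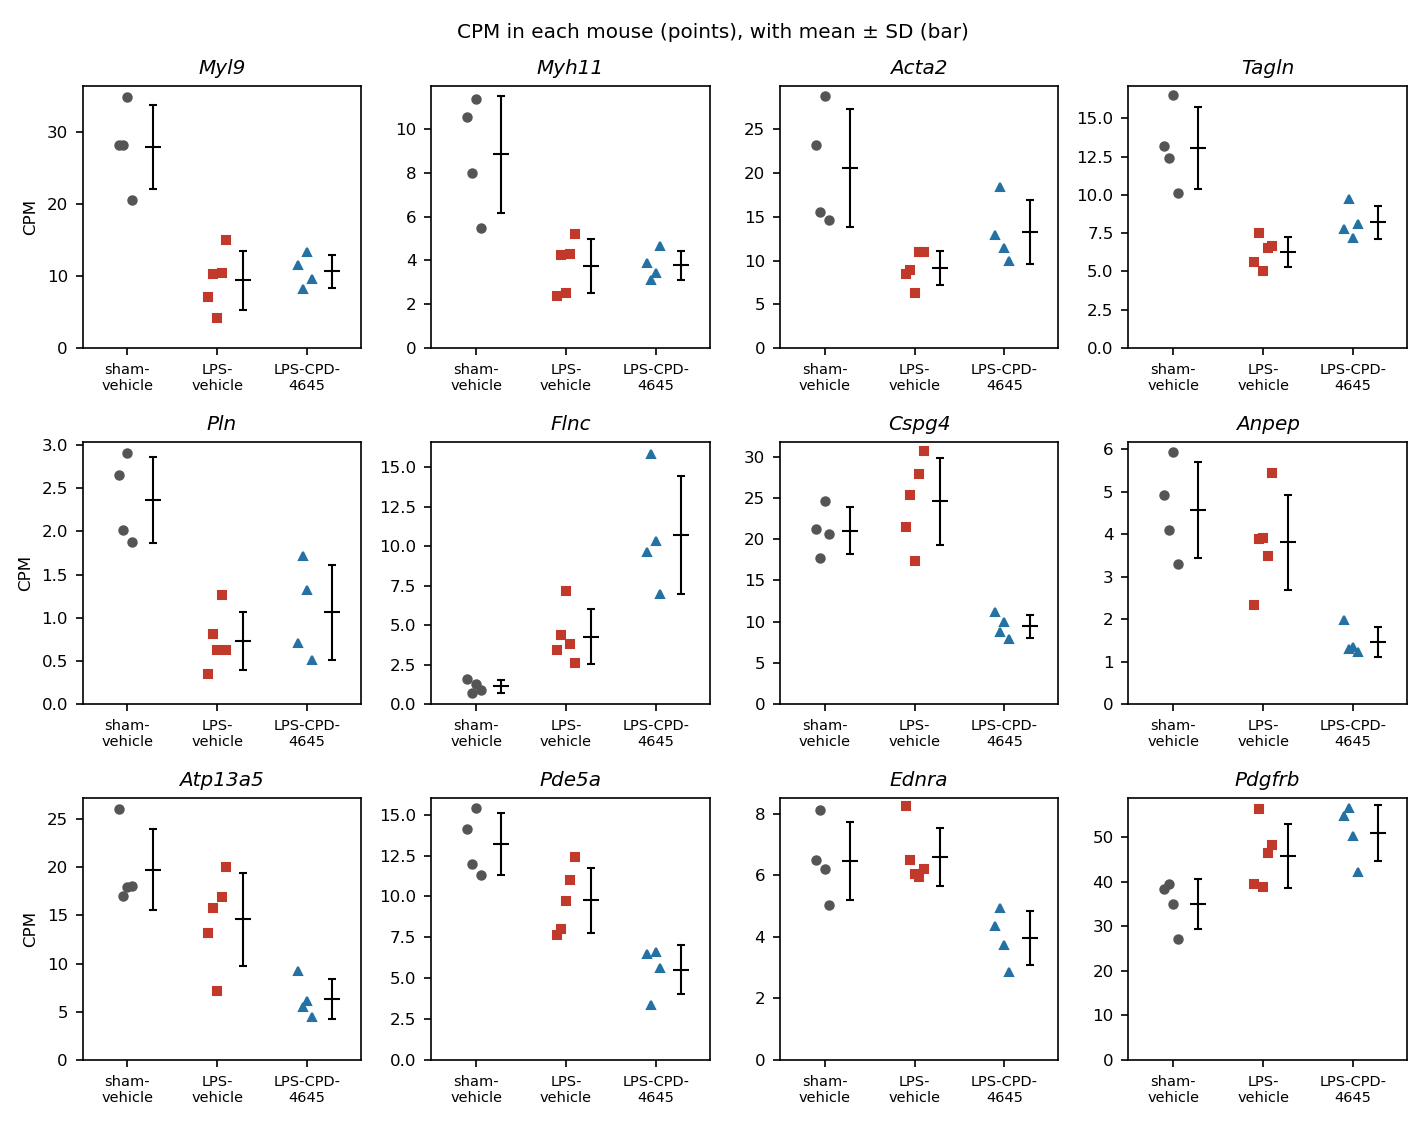
CPM of 12 members in each mouse (points, linear axis from 0), with the group mean and SD drawn beside them, in sham-vehicle (circles), LPS-vehicle (squares) and LPS-CPD-4645 mice (triangles). *Myl9* and *Myh11* lie below the sham-vehicle mice in both LPS groups, *Flnc* rises from group to group, and *Cspg4*, *Anpep*, *Pde5a* and *Ednra* are lowest in the 4 LPS-CPD-4645 mice.

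Against sham-vehicle, the mice given LPS and CPD-4645 were lower in genes of both lists. Of 17 pericyte genes 9 fell and 1 rose, and of 15 contractile genes 7 fell and 1 rose (edgeR), where 19.3% of all genes were called lower and 19.5% higher. The median log2 fold change was -0.43 over the pericyte genes, -0.55 over the contractile genes and -0.014 over all genes. Every LPS-CPD-4645 mouse lay below every sham-vehicle mouse for 8 pericyte and 6 contractile genes, and for 18.8% of all genes. This comparison shares the sham-vehicle mice with the first and the LPS-CPD-4645 mice with the second, so the 3 sets of values are not independent.

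Among the pericyte genes the 5 that fell by more than 2-fold were *Anpep* (log2 fold change -1.67, SE 0.29), *Atp13a5* (-1.67, SE 0.26), *Pde5a* (-1.27, SE 0.21), *Higd1b* (-1.24, SE 0.31) and *Cspg4* (-1.17, SE 0.17), beside 4.98% of all genes. *Vtn* was measured at 115, 107, 119 and 77.7 CPM in the sham-vehicle mice, 64.3, 95.2, 42.5, 64.8 and 101 in the LPS-vehicle mice and 66.3, 55.3, 56.9 and 42.8 in the LPS-CPD-4645 mice. It had negative values in both steps that did not pass edgeR's test over all mice (log2 fold change -0.50 after LPS and -0.43 with CPD-4645), and it was lower in the LPS-CPD-4645 than in the sham-vehicle mice without overlap (log2 fold change -0.92, SE 0.21, adjusted p = 0.0018). After LPS, *Vtn* was called with no filter on low counts (adjusted p = 0.027), with the replicate number as a block (adjusted p = 0.015) and without sham-vehicle mouse 4 or LPS-vehicle mouse 2 or 5 (adjusted p = 0.024 to 0.044, edgeR). With CPD-4645 against LPS-vehicle it was called without LPS-vehicle mouse 3 (adjusted p = 0.017) or the 2 shallowest libraries (adjusted p = 0.012). *Higd1b*, a gene of a mitochondrial protein family that is used as a pericyte marker, was measured at 6.13, 6.80, 5.46 and 4.30 CPM in the sham-vehicle mice, 2.58, 3.57, 2.52, 2.82 and 6.89 in the LPS-vehicle mice and 3.40, 1.82, 2.41 and 2.16 in the LPS-CPD-4645 mice. Its LPS-CPD-4645 mice also lay below all sham-vehicle mice (log2 fold change -1.24, SE 0.31, adjusted p = 0.0045).

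*Ednra* (log2 fold change -0.71, SE 0.21, adjusted p = 0.012) and *Mcam* (log2 fold change -0.50, SE 0.11, adjusted p = 0.0016) were also lower than in sham-vehicle mice. *Rgs5* was lower as well (log2 fold change -0.40, SE 0.15, adjusted p = 0.039), but 6 of the 13 mice, left out singly, each ended that call (sham-vehicle 1, 2 and 3, LPS-CPD-4645 2, 3 and 4, adjusted p = 0.052 to 0.15). *Pdgfrb* was higher in all 4 LPS-CPD-4645 mice than in all sham-vehicle mice (log2 fold change 0.54, SE 0.13, adjusted p = 0.0042).

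Of the contractile genes, *Myl9* (log2 fold change -1.39, SE 0.26, adjusted p = 0.00044), *Myh11* (log2 fold change -1.24, SE 0.27, adjusted p = 0.0016), *Tagln* (log2 fold change -0.67, SE 0.18, adjusted p = 0.0057), *Tpm2* (log2 fold change -0.66, SE 0.18, adjusted p = 0.0085) and *Mylk* (log2 fold change -0.53, SE 0.15, adjusted p = 0.010) were lower in the LPS-CPD-4645 mice than in any sham-vehicle mouse. *Acta2* (log2 fold change -0.64, SE 0.23, adjusted p = 0.034) overlapped the sham-vehicle range. Its call was lost without sham-vehicle mouse 1 or 3 or LPS-CPD-4645 mouse 1, 3 or 4 (adjusted p = 0.069 to 0.16, edgeR). It was also lost with the replicate number as a block (adjusted p = 0.052) and without the 2 shallowest libraries (adjusted p = 0.053). *Pln* (log2 fold change -1.13, SE 0.43, adjusted p = 0.044) lost its call without any sham-vehicle mouse or without LPS-CPD-4645 mouse 1, 3 or 4 (adjusted p = 0.052 to 0.13), and also with the block (adjusted p = 0.053), with no filter on low counts (adjusted p = 0.058) and without the 2 shallowest libraries (adjusted p = 0.10). *Flnc* was higher than in sham-vehicle mice (log2 fold change 3.23, SE 0.34, adjusted p = 1.2e-06), the member with a rise of more than 2-fold, beside 6.11% of all genes. For *Tpm1* the log2 fold change was -0.011 (SE 0.067, adjusted p = 0.91).

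**Figure D4:**
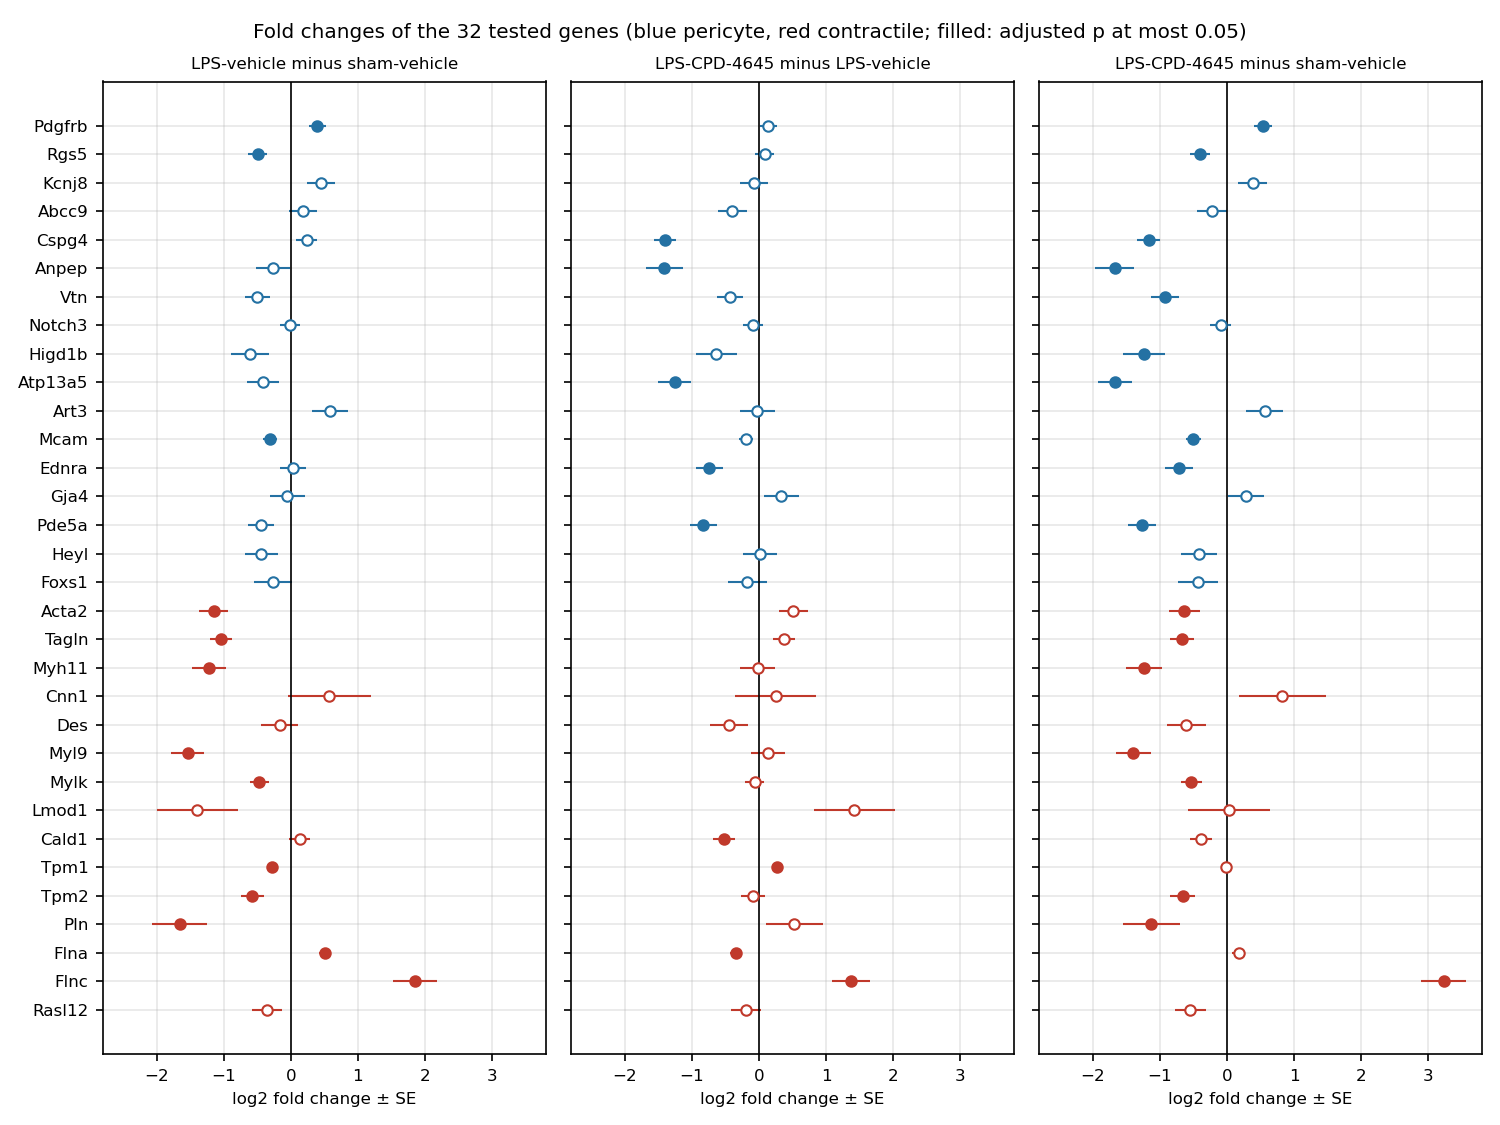
Log2 fold change (horizontal axis) with its SE (whiskers) for each tested member in the 3 comparisons, pericyte genes in blue and contractile genes in red, filled where the adjusted p is at most 0.05. After LPS alone the contractile genes *Pln*, *Myl9*, *Myh11*, *Acta2* and *Tagln* lie below -1, and with CPD-4645 against LPS-vehicle the pericyte genes *Anpep*, *Cspg4* and *Atp13a5* do.

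The balance of both lists was followed in each mouse as the median log2 deviation of the contractile genes from their sham-vehicle means, minus that of the pericyte genes. It ran from -0.056 to 0.14 in the sham-vehicle mice, from -0.55 to -0.19 in the LPS-vehicle mice and, with CPD-4645 added, from -0.13 to 0.22. All 5 LPS-vehicle mice lay below all other mice. The lists behind it differed by group. The contractile median deviation was -0.20 to 0.23 in sham-vehicle, -0.98 to -0.20 in LPS-vehicle and -0.78 to -0.18 in LPS-CPD-4645 mice, and the pericyte median deviation was -0.34 to 0.13, -0.43 to 0.13 and -0.76 to -0.36. The contractile values of the LPS-CPD-4645 mice overlapped those after LPS alone, and their pericyte values were all lower than those of LPS-vehicle mice 1, 2, 4 and 5. The lists were chosen with these values known, so no test was made of this score.

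**Figure D5:**
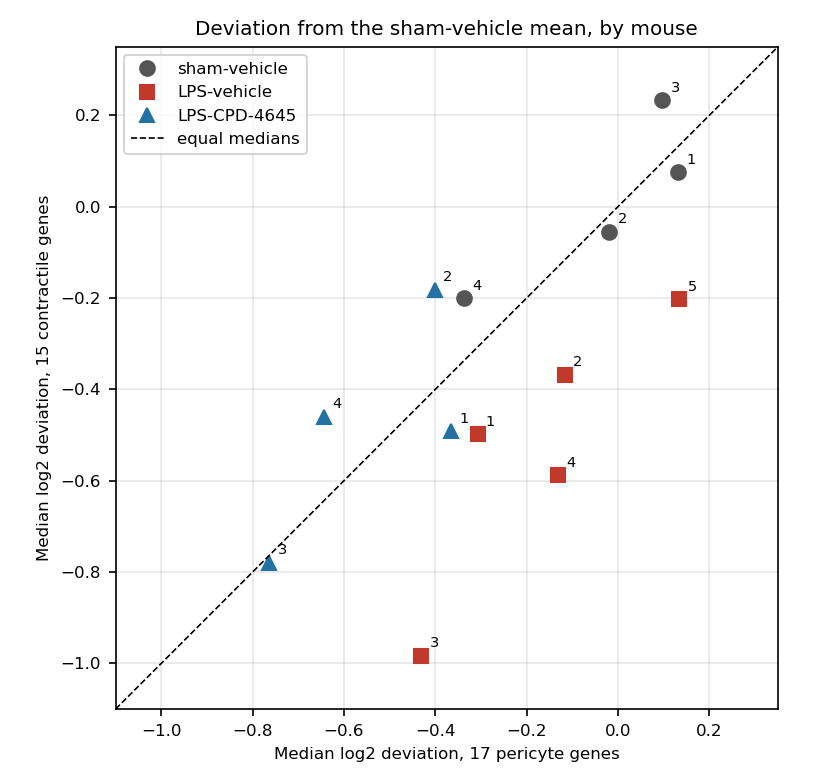
Median log2 deviation from the sham-vehicle mean over the 17 pericyte genes (horizontal axis) and the 15 tested contractile genes (vertical axis), 1 numbered point per mouse, with circles for sham-vehicle, squares for LPS-vehicle and triangles for LPS-CPD-4645; the dashed line marks equal medians. The 5 LPS-vehicle mice lie 0.19 to 0.55 below the line, farther below it than any other mouse.

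Pericyte genes that passed edgeR's test over all mice in no comparison were *Kcnj8*, *Abcc9*, *Notch3*, *Art3*, *Gja4*, *Heyl* and *Foxs1*. Of these, *Abcc9* was called lower with CPD-4645 against LPS-vehicle by limma-voom (log2 fold change -0.56, adjusted p = 0.034) and without the 2 shallowest libraries (log2 fold change -0.70, adjusted p = 0.011). *Kcnj8* was called higher after LPS without those libraries (adjusted p = 0.027) and without LPS-vehicle mouse 3 alone (adjusted p = 0.045). *Art3* was called higher without sham-vehicle mouse 3 (adjusted p = 0.030 after LPS and 0.020 with CPD-4645 against sham-vehicle). *Notch3*, the mural Notch receptor, was measured at 13.1 to 17.9 CPM in sham-vehicle, 12.9 to 18.9 in LPS-vehicle and 11.8 to 16.5 in LPS-CPD-4645 mice. It shares 488 exon bases with the antisense gene *Gm17276*. *Heyl*, its target, had log2 fold changes of -0.44, 0.022 and -0.41 in the order LPS against sham, CPD-4645 against LPS and CPD-4645 against sham. *Gja4*, the gap junction gene connexin 37 of arterial endothelium and mural cells, had -0.050, 0.33 and 0.28. *Foxs1*, a forkhead factor of mural cells, had -0.26, -0.17 and -0.43. *Kcnj8* had 0.45, -0.070 and 0.38. *Art3* had 0.59, -0.024 and 0.56, and its span holds the interferon-induced chemokine genes *Cxcl10* and *Cxcl11* on the other strand, without shared exon bases. Like those of *Notch3*, exons of *Des*, *Abcc9*, *Rasl12* and *Pde5a* share bases with genes of the other strand, here 55 to 220. Which strand column was counted is not given in the sources used here, so reads from such shared exon bases cannot be told apart.

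The pathways that act on these cells were read from companion lists, set against the 8.86% of all genes called lower and 11.1% called higher after LPS, the 16.4% and 14.1% with CPD-4645 against LPS-vehicle, and the 19.3% and 19.5% with CPD-4645 against sham-vehicle. Of 5 PDGF ligand and receptor genes, 1 fell after LPS, 1 fell with CPD-4645 against LPS-vehicle and 2 were lower with CPD-4645 against sham-vehicle. *Pdgfb*, the endothelial ligand that recruits pericytes, fell after LPS (log2 fold change -0.36, SE 0.10, adjusted p = 0.021) and was lower with CPD-4645 against sham-vehicle (log2 fold change -0.53, SE 0.11, adjusted p = 0.00098). *Pdgfc* fell with CPD-4645 (log2 fold change -0.67, SE 0.15, adjusted p = 0.0030). The ligand genes *Pdgfa* and *Pdgfd* had log2 fold changes of -0.31 and -0.0070 after LPS and 0.13 and -0.37 with CPD-4645.

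Of 12 Notch pathway genes, 4 rose and 1 fell after LPS, and 1 rose and 2 fell with CPD-4645 against LPS-vehicle, where the 16.7% that fell is near the share of all genes. The endothelial receptor *Notch4* rose after LPS (log2 fold change 1.09, SE 0.23, adjusted p = 0.0027) and fell with CPD-4645 (log2 fold change -0.68, SE 0.23, adjusted p = 0.033). *Notch1* rose after LPS (log2 fold change 0.56, SE 0.14, adjusted p = 0.0084) and the target *Hey1* fell (log2 fold change -0.36, SE 0.074, adjusted p = 0.0019). Among the ligands, *Dll4* had log2 fold changes of 0.67, 0.39 and 1.06 in the order LPS against sham, CPD-4645 against LPS and CPD-4645 against sham, *Dll1* had 0.18, 0.15 and 0.34, and *Jag1* had 0.10, -0.15 and -0.050. Of these, *Dll4* (adjusted p = 0.0028, edgeR) and *Dll1* (adjusted p = 0.049) were called in the last comparison. *Jag2* rose with CPD-4645 (log2 fold change 0.57, SE 0.16, adjusted p = 0.013), and the feedback inhibitor gene *Nrarp* fell (log2 fold change -0.75, SE 0.19, adjusted p = 0.0066).

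Of 11 tested genes of SRF, its cofactors and other targets, 2 rose and 1 fell after LPS, and 2 rose and 2 fell with CPD-4645 against LPS-vehicle, 18.2% each way. These 18.2% lay near the 14.1% of all genes called higher and 16.4% lower, and the 9.09% that fell after LPS near 8.86%. *Srf* itself had a log2 fold change of 0.013 after LPS and 0.17 with CPD-4645. *Myocd*, the myocardin gene, did not pass the filter on low counts. The cofactor *Mrtfa* rose after LPS (log2 fold change 0.57, SE 0.10, adjusted p = 0.00058), as did the transgelin relative *Tagln2*, which is broadly expressed (log2 fold change 1.09, SE 0.15, adjusted p = 4.9e-05). The related *Mrtfb* had log2 fold changes of 0.16 after LPS and -0.11 with CPD-4645. *Tagln2* then fell with CPD-4645 (log2 fold change -0.83, SE 0.15, adjusted p = 0.00065), while *Csrp1*, a cytoskeletal LIM protein gene, fell after LPS (log2 fold change -0.57, SE 0.16, adjusted p = 0.015) and rose with CPD-4645 (log2 fold change 0.50, SE 0.16, adjusted p = 0.022). *Fhl2*, another LIM protein gene, rose with CPD-4645 (log2 fold change 0.40, SE 0.080, adjusted p = 0.0012) and *Tgfb1i1*, a focal adhesion protein gene, fell (log2 fold change -0.58, SE 0.18, adjusted p = 0.019).

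Of 16 genes that control contraction (receptors, channels, phosphatase and cyclic GMP genes), 3 fell after LPS, and 3 fell and 1 rose with CPD-4645 against LPS-vehicle. The 18.8% that fell with CPD-4645 is near the share of all genes called lower, and the 6.25% that rose is under the share called higher. *Ppp1r14a*, an inhibitor of myosin phosphatase, fell in both steps (log2 fold change -1.17, SE 0.16, adjusted p = 4.5e-05 after LPS and log2 fold change -1.15, SE 0.18, adjusted p = 0.00014 with CPD-4645). Its sham-vehicle mean was 43.5 CPM, where *Myh11* stood at 8.85, and which cells of the mixture made it was not tested. *Ednrb*, the endothelin receptor of endothelium and astrocytes, fell after LPS (log2 fold change -0.73, SE 0.10, adjusted p = 3.3e-05). *Edn1*, the gene of the constrictor endothelin 1, rose with CPD-4645 (log2 fold change 0.83, SE 0.28, adjusted p = 0.029), and *Gucy1a1*, a subunit of the nitric oxide receptor, fell (log2 fold change -0.35, SE 0.093, adjusted p = 0.0084). *Ednra*, described above, fell in this comparison.

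Of 21 tested further mural genes outside the 33, 4 rose and 3 fell after LPS, 3 fell with CPD-4645 against LPS-vehicle, and 4 were higher and 8 lower with CPD-4645 against sham-vehicle. The 14.3% that fell with CPD-4645 against LPS-vehicle and the 19.0% that were higher against sham-vehicle lay near the shares of all genes (16.4% and 19.5%), and 38.1% were lower against sham-vehicle, beside 19.3% of all genes. *Steap4*, a metalloreductase gene of pericytes, rose after LPS (log2 fold change 3.46, SE 0.30, adjusted p = 1.8e-07) and was also higher in LPS-CPD-4645 than in sham-vehicle mice (log2 fold change 3.99, SE 0.30, adjusted p = 4.5e-08). *Ifitm1*, an interferon-induced membrane protein gene, rose as well (log2 fold change 2.40, SE 0.22, adjusted p = 3.8e-07). The actin-associated genes *Synpo2* (log2 fold change -0.69, SE 0.17, adjusted p = 0.0073) and *Nexn* (log2 fold change -0.85, SE 0.22, adjusted p = 0.0095) fell after LPS. *Slc6a20a* (log2 fold change -1.01, SE 0.23, adjusted p = 0.0029) and *Casq2* (log2 fold change -1.08, SE 0.31, adjusted p = 0.014), the calcium-binding calsequestrin 2 gene, fell with CPD-4645.

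Markers of other cells were counted as well. After LPS 8.86% of all genes were called lower and 11.1% higher, and with CPD-4645 against LPS-vehicle 16.4% and 14.1%. Of 12 endothelial markers, 5 rose and 2 fell after LPS and 5 fell with CPD-4645 against LPS-vehicle. Their summed level was 337 to 553 CPM in sham-vehicle, 402 to 785 in LPS-vehicle and 424 to 590.3 in LPS-CPD-4645 mice. The 402 was that of LPS-vehicle mouse 3, the shallowest library, and the other LPS-vehicle mice stood at 653 to 785, above every sham-vehicle and LPS-CPD-4645 mouse. That library was also the lowest of its group in the summed level of the pericyte, contractile, fibroblast, astrocyte, microglial and oligodendrocyte precursor genes. Of 8 fibroblast markers, 4 fell and 1 rose after LPS, beside the contractile falls, and 1 rose with CPD-4645, with a summed level of 209 to 236 CPM, 151 to 211 and 179 to 237. Of 8 neuronal markers 1 fell after LPS and 3 rose with CPD-4645, and of 8 astrocyte markers 4 rose after LPS. Of 7 microglial markers, 2 fell after LPS and 3 fell with CPD-4645 against LPS-vehicle. Of 6 oligodendrocyte markers, 4 fell and 1 rose after LPS, and 1 fell and 2 rose with CPD-4645, and of 4 tested erythrocyte markers 4 fell after LPS. Of 6 choroid plexus markers, 2 fell after LPS and 1 rose with CPD-4645. Oligodendrocyte precursor markers called lower were 4 of 8 after LPS and 4 of 8 with CPD-4645 against LPS-vehicle. Counts of 1 in lists of 6 or 8 markers (16.7% and 12.5%) lay near the shares of all genes. With CPD-4645 against sham-vehicle, beside the falls in both mural lists, 6 of 7 microglial, 5 of 8 oligodendrocyte precursor, 4 of 8 fibroblast, 3 of 12 endothelial, 2 of 6 oligodendrocyte and 2 of 6 choroid plexus markers were lower, and 3 endothelial, 3 astrocyte, 2 neutrophil and 1 fibroblast marker higher (edgeR), beside 19.3% of all genes lower and 19.5% higher. The endothelial count of 3 of 12 each way lay near these shares. The summed level of the microglial markers was 220 to 300.04 CPM in sham-vehicle, 175 to 308 in LPS-vehicle and 155 to 205 in LPS-CPD-4645 mice. The part of these cells in the pericyte and contractile results was not tested.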

How the data were processed

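Isolated brain neurovasculature of 13 mice was sequenced as stranded polyA libraries. The authors aligned reads to mm10 (GRCm38) with STAR 2.5.2a, after base calling with bcl2fastq 2.15.0.4, counted them per gene on GENCODE M9 basic and deposited whole-number counts without normalization. The strand column kept is not given in the sources used here. Of 47643 Ensembl identifiers, 47224 matched GENCODE M21, which gave symbols, positions and exon lengths. Groups and replicate numbers came from the sample titles. That each library is 1 separate mouse is as the study gives it, so spreads are between mice.

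Counts were fitted with edgeR 4.0.16 (R 4.3.3): filterByExpr with a minimum count of 10 and total of 15, TMM (factors 0.908 to 1.08) and a quasi-likelihood model of the 3 groups, at a common dispersion of 0.0334, with Benjamini-Hochberg adjustment over 17285 genes. A call required an adjusted p of at most 0.05, and the 2-fold criterion of the study was an alternative, as were limma-voom (limma 3.58.1), the study's own test, DESeq2 1.42.0, its size factors, no filter, a floor of 50 on the mean count, fits of 2 groups at a time, a replicate block and each mouse left out. Log2 CPM used a prior count of 2. Scripts were tested on simulated data. Libraries held 7813559 to 55133373 counts. Pairs of replicates differed by 9.82 to 61.07 times counting error (chi-square per gene), so none was counted as a repeat of another.

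The members and all lists were chosen with earlier results of these data known. Values by mouse were given for members called in any comparison, and from companion lists the 2 genes of lowest adjusted p in each direction and comparison, with PDGF and Notch ligands and SRF cofactors whatever their values; some of these are given by counts. Pathway and cell marker lists come from general knowledge, and that of oligodendrocyte precursors, and the fit without the 2 shallowest libraries, were added after the data were seen. Python 3.11.15, pandas 2.3.3, numpy 2.4.6 and matplotlib 3.10.9 were used otherwise.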

Additional observations from a re-analysis of the deposited data

Results flagged for a closer look

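In 3 cases 1 mouse stood apart from the rest of its group, by the share of the group's range that lay between it and its nearest neighbour. Over the 99 groups of values looked at, chance alone picks about 1 in 20.

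*Higd1b* in LPS-vehicle mouse 5 was 6.89 CPM, against 2.52 to 3.57 in the others of that group, a gap of 0.760 of the range. Without this mouse the log2 fold change of *Higd1b* after LPS was -0.96 (adjusted p = 0.0092, edgeR), beside -0.61 (adjusted p = 0.15) with it. With all mice and the replicate number as a block, *Higd1b* was also called (log2 fold change -0.95, adjusted p = 0.014, edgeR).

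*Atp13a5* in sham-vehicle mouse 1 was 26.1 CPM, against 17.01 to 18.0 in the other sham-vehicle mice, a gap of 0.889 of the range. The calls of *Atp13a5* with CPD-4645 held without it.

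*Ednra* in LPS-vehicle mouse 1 was 8.24 CPM, against 5.94 to 6.49 in the others, a gap of 0.760 of the range. The call of *Ednra* with CPD-4645 against LPS-vehicle held without it.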

How the results depend on the processing

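The fit called 3 members higher and 10 lower after LPS, 2 and 7 with CPD-4645 against LPS-vehicle, and 2 and 16 with CPD-4645 against sham-vehicle. Requiring a 2-fold change as well left 1 and 5, 1 and 3, and 1 and 8. DESeq2 gave 4 higher with CPD-4645 against LPS-vehicle, adding *Acta2* and *Lmod1*. With each mouse left out in turn, 6 to 12 members were lower after LPS, with 6 without sham-vehicle mouse 1 or mouse 3. When genes averaging under 50 counts were dropped, the median log2 fold change of the pericyte genes was -0.15 after LPS and -0.30 with CPD-4645 against LPS-vehicle, and that of the contractile genes with CPD-4645 was -0.047. The latter was 0.068 by limma-voom and 0.059 with no filter. Every other count over all members stayed within 1.5 times its value. The LPS falls of *Myl9*, *Myh11*, *Acta2*, *Tagln*, *Pln* and *Tpm1* and the CPD-4645 falls of *Cspg4*, *Anpep*, *Atp13a5*, *Pde5a* and *Ednra* against LPS-vehicle were called in every fit that gave them a value and with each mouse left out, the 2-fold requirement aside. Of the single-gene values called, 786 alternative values were also called and 52 were not; of those not called, 32 became called.

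Members that were not called and lay near 0 changed sign. With each mouse left out, the log2 fold changes ran over 0 as follows. For LPS against sham these ranges were *Notch3* -0.088 to 0.064, *Ednra* -0.074 to 0.16, *Gja4* -0.29 to 0.092 and *Des* -0.38 to 0.038. For CPD-4645 against LPS these ranges were *Kcnj8* -0.24 to 0.074, *Notch3* -0.14 to 0.021, *Art3* -0.13 to 0.084, *Heyl* -0.11 to 0.16, *Foxs1* -0.30 to 0.011, *Myh11* -0.15 to 0.13, *Cnn1* -0.23 to 0.48, *Myl9* -0.010 to 0.36, *Mylk* -0.13 to 0.071 and *Tpm2* -0.26 to 0.018. For CPD-4645 against sham these ranges were *Notch3* -0.16 to 0.013, *Lmod1* -0.10 to 0.19 and *Tpm1* -0.018 to 0.013. By limma-voom the signs that turned were *Notch3* 0.015 (LPS against sham), *Art3* 0.062 (CPD-4645 against LPS), *Heyl* -0.048 (CPD-4645 against LPS) and *Lmod1* -0.042 (CPD-4645 against sham). Without the 2 shallowest libraries, an alternative chosen after seeing the data, they were *Notch3* 0.045 (LPS against sham), *Gja4* 0.092 (LPS against sham), *Rgs5* -0.073 (CPD-4645 against LPS), *Art3* 0.060 (CPD-4645 against LPS), *Heyl* -0.16 (CPD-4645 against LPS), *Myl9* -0.045 (CPD-4645 against LPS) and *Lmod1* -0.11 (CPD-4645 against sham).

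No clear pairing of the mice by replicate number was seen, and correlations over so few mice cannot exclude one. Over 12 pairs of the same number the deviations from the group means correlated at -0.0346 to 0.114 (median 0.0273), with 1 over 0.1. Over 44 other pairs they correlated at -0.137 to 0.124 (median -0.0129), with 2 over 0.1. A fit with the replicate number as a block called 3 higher and 12 lower after LPS, 3 and 8 with CPD-4645 against LPS-vehicle, and 2 and 15 against sham-vehicle, and turned the sign of *Art3* 0.091 (CPD-4645 against LPS) and *Myh11* 0.12 (CPD-4645 against LPS).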
